A study of Rattus norvegicus with 8 samples.

Results

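The genes of a set of secreted matrix glycoproteins were followed across rat cardiac fibroblasts, myofibroblasts and microcurrent-treated myofibroblasts. They were Fn1 (ENSRNOG00000014288), Sparc (ENSRNOG00000012840), Thbs1 (ENSRNOG00000045829) and Postn (ENSRNOG00000012660). The 4 genes were chosen by name as a set, with earlier results of these data known. The set makes up 4 of the 21867 genes in the table of estimated counts. It makes up 4 of the 13849 genes that passed the filter on low counts, so no member was lost. The tables list Ensembl IDs without symbols. The symbols came with the definition of the set and could not be checked against a table here.

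Libraries came from 4 groups of 2. Cardiac fibroblasts (CF) were primary cells from neonatal Wistar Kyoto rats, kept in high-glucose medium with 10% serum. Myofibroblasts (MF) were made from the same kind of cell by repeated passaging in low serum and received no current. The remaining groups were such myofibroblasts under a direct current of 1 µA/cm2 (1 µA) or 2 µA/cm2 (2 µA) for 72 h, delivered through platinum/iridium electrodes placed in the medium. The labels give 10% serum as the standard medium of every library, untreated MFs included. The sources used here do not give the medium of untreated MFs over those 72 h. Current and medium therefore cannot be told apart in the comparisons with MF. CF and MF also differ in passage number and serum. The labels call the 2 libraries of a group biological replicates but do not name the animals or cultures. The cell types were not checked against marker genes, which need symbols. These are bulk libraries, in which fewer cells of a kind and less RNA per cell cannot be told apart.

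Matrix glycoproteins link collagen fibers, growth factors and cells. Fibronectin, the product of Fn1, is a scaffold protein that cells bind through integrins and assemble into fibrils. The other members are matricellular proteins, which regulate cell-matrix contact more than they bear load. Secreted protein acidic and rich in cysteine (Sparc) binds collagen and takes part in its processing. Thrombospondin-1 (Thbs1) binds several cell surface receptors and can activate latent transforming growth factor beta. Periostin (Postn) promotes collagen cross-linking and is widely used as a marker of activated fibroblasts in the injured heart.

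Levels are given as CPM, the estimated counts of a gene in every 1000000 counts of a library after TMM scaling. They are not divided by transcript length, so they compare one gene between libraries and not the genes with each other. A library held between 26473085 and 37903701 estimated counts, and the smallest count of any member was 24227, for Postn in MF. Counting error was therefore at most 0.642% of a value, against a spread between replicates (SD as percent of the mean) of 0.789% to 61.5%. Differences were tested with edgeR's quasi-likelihood test in one fit over the 8 libraries with Benjamini-Hochberg adjustment over all 13849 genes. A gene was called where it had both an adjusted p below 0.05 and a log2 fold change of 1 or more in size. With 4 residual degrees of freedom, the spread of each group enters every test, the other groups' included.

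**Figure D1:**
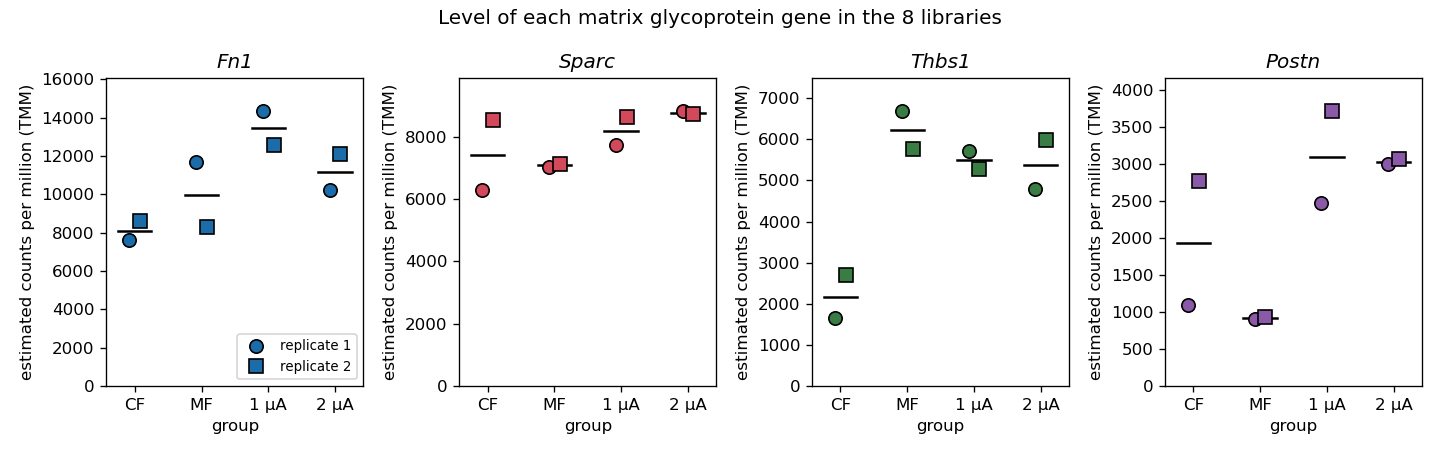
Level in CPM (TMM-scaled, y axes starting at 0) of Fn1, Sparc, Thbs1 and Postn in CF, MF, 1 µA and 2 µA, with 1 point per library and a line at each group's mean of 2. Thbs1 was lowest in both CF libraries, Postn was lowest in both MF libraries, and CF replicates 1 and 2 lay far apart for Postn, at 1092 and 2773 CPM.

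Thbs1 was the member that separated CF from all myofibroblast groups. Its level was 1661 and 2693 CPM in CF replicates 1 and 2, 6679 and 5762 CPM in MF, 5710 and 5283 CPM at 1 µA, and 4782 and 5972 CPM at 2 µA. Both CF libraries lay below each of the other 6, and the 3 myofibroblast groups overlapped or nearly met. How many of all tested genes separate CF from the rest was not computed. Group means were 2177 ± 730 CPM in CF, 6221 ± 649 CPM in MF, 5496 ± 302 CPM at 1 µA and 5377 ± 842 CPM at 2 µA (SD, n = 2 each).

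Thbs1 rose 2.86-fold from CF to MF, a log2 fold change of 1.51 ± 0.255 (SE, adjusted p = 0.0118 by edgeR). It was the 1 of 4 members called between MF and CF, where 10.4% of all tested genes were called. After microcurrent it was still called above CF, by 1.34 ± 0.253 at 1 µA (SE, adjusted p = 0.0234, edgeR) and by 1.30 ± 0.253 at 2 µA (SE, adjusted p = 0.0303, edgeR) on the log2 scale. Thbs1 was again the 1 member of 4 called in each of these comparisons, where 6.51% and 5.02% of tested genes were called at 1 µA and 2 µA. Against MF, the treated cells differed in Thbs1 by -0.19 (95% interval -0.70 to 0.31, adjusted p = 0.565, edgeR) on the log2 scale, an interval that leaves out a 2-fold difference in either direction. The call between MF and CF was lost when either MF library was left out (log2 fold change 1.41 without MF replicate 1 and 1.62 without MF replicate 2). In those fits calls fell over all tested genes too, and not in Thbs1 alone. Over the other alternatives the adjusted p of Thbs1 ran from 1.44e-08 with DESeq2 to 0.0322 with only the 2 groups in the fit (edgeR). With only the 2 groups in the fit, the calls against CF were lost too (adjusted p = 0.0754 at 1 µA and 0.165 at 2 µA, with ranges over the alternatives of 1.41e-06 to 0.126 and 3.09e-06 to 0.165). Under that setting 3.58% and 0.0148% of all tested genes were called, so calls were lost across the whole table and not in Thbs1 alone. They were also lost without MF replicate 1 (adjusted p = 0.0599 and 0.0765), MF replicate 2 (0.0603 and 0.0771), 1 µA replicate 1 (0.126 and 0.0668) or 1 µA replicate 2 (0.0929 and 0.0642), and at 2 µA also without 2 µA replicate 1 (0.0668) or 2 µA replicate 2 (0.0796), in each case by edgeR.

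The bases just before the start of Thbs1 and of Postn are shown because these are the members that were called. They are the 250 bases before the RefSeq start in the rat assembly GRCr8, and the authors' files use rn6, so the coordinates belong to GRCr8 alone. Of the 4 members, 3 have an entry in the promoter table, and Fn1 has none. Capitals mark matches, on either strand, to 4 short motifs. These were TATAAA, the core of the TATA box, then CAGAC, the short motif bound by Smad proteins, then TGANTCA, the site of AP-1 proteins, and finally GGGCGG, the GC box. Of 33469 promoters of this length, 12.9% held the first, 42.9% the second, 6.34% the third and 30.5% the last. The Thbs1 stretch, at chr3:125510000-125510249 on the plus strand, held the GC box at bases -160 to -155 and, on the opposite strand, at -101 to -96 before the start, and none of the other motifs. Its GC content was 67.6%, against a median of 51.2% over all promoters.
Thbs1: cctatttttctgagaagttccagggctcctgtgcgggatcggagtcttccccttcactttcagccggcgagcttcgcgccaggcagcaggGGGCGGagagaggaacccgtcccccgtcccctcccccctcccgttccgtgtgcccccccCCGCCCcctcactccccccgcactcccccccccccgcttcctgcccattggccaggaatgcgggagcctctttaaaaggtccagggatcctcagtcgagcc
The Postn stretch, at chr2:140677811-140678060 on the plus strand, held TATAAA at bases -44 to -39 and CAGAC at -166 to -162, with a GC content of 50.8%.
Postn: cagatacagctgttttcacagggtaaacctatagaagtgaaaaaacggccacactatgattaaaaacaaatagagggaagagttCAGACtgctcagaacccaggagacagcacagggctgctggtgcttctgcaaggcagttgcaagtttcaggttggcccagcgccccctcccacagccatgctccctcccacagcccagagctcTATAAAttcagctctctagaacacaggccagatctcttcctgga
The Sparc stretch had a GC content of 60.0% and held CAGAC in 3 places and none of the other motifs. A match of letters is no proof of a bound site, and binding was not measured in these libraries.

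Postn was lowest in untreated MF and higher under both current densities. Its level was 906 and 933 CPM in MF replicates 1 and 2, 2481 and 3714 CPM at 1 µA, and 2999 and 3070 CPM at 2 µA. CF replicate 1 stood at 1092 CPM, close to MF, and CF replicate 2 at 2773 CPM, within the range of the treated libraries. Both MF libraries lay below every other library, and the treated libraries shared no value with MF. The share of all tested genes that separate in this way was not computed. Group means were 1932 ± 1188 CPM in CF, 919 ± 19.0 CPM in MF, 3097 ± 872 CPM at 1 µA and 3035 ± 49.9 CPM at 2 µA (SD, n = 2 each). The paper reported the opposite direction by quantitative PCR, with Postn lower after microcurrent than in untreated myofibroblasts. That assay was scaled to Gapdh and beta-actin and also covered current with polarity reversal, which these libraries lack. The cause of this disagreement was not tested here.

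In the mean of both current densities, Postn rose 3.34-fold over MF, a log2 fold change of 1.74 ± 0.386 (SE, 95% interval 0.82 to 2.66, adjusted p = 0.0312 by edgeR). It was the 1 of 4 members called, where 6.76% of tested genes were called. Its fold change was larger in size than that of 95.9% of the tested genes. Taken alone, the current densities gave log2 fold changes of 1.75 ± 0.421 at 1 µA (SE, adjusted p = 0.0555, edgeR) and 1.72 ± 0.421 at 2 µA (SE, adjusted p = 0.0544, edgeR), just above the threshold. No member was thus called by edgeR at either density alone, with 3.92% of tested genes called at 1 µA and 4.62% called at 2 µA. Postn alone of the members had an unadjusted p below 0.05 in each (0.00452 at 1 µA and 0.00491 at 2 µA, edgeR). The share of all tested genes at that cut-off was not computed. DESeq2 called Postn in both, with 5.47% of all genes called at 1 µA and 6.03% at 2 µA.

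The size of the Postn difference held in all alternatives, from 1.58 to 1.87 for the mean of both densities, whereas the call did not. It was lost without MF replicate 1 (adjusted p = 0.223) or 2 (0.18), 1 µA replicate 1 (0.0547) or 2 (0.0889), or 2 µA replicate 1 (0.0604) or 2 (0.0551), all by edgeR. Calls over all tested genes dropped in these fits too, from 6.76% to between 0.12% without MF replicate 1 and 6.26% without 2 µA replicate 2. Over all alternatives the adjusted p ran from 1.82e-06 with DESeq2 to 0.223. Without CF replicate 1 or 2, the adjusted p for the mean of both densities was 0.00308 or 0.00304, and Postn was then also called at 1 µA (0.00639 or 0.00638) and at 2 µA (0.00615 or 0.00611). Over the alternatives these single-density p-values ranged from 7.35e-05 to 0.29 at 1 µA and from 9.04e-05 to 0.289 at 2 µA (edgeR and DESeq2).

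Between MF and CF, Postn differed by -1.07 ± 0.414 on the log2 scale (SE, adjusted p = 0.117, edgeR) and was not called. That value rests on which CF library is used. It was -1.58 without CF replicate 1 (adjusted p = 0.0128) and -0.25 without CF replicate 2 (adjusted p = 0.477, with a range of 0.0128 to 0.477 over the alternatives). DESeq2 called it too, at -1.06 (adjusted p = 0.022). CF replicate 2 exceeded CF replicate 1 by 2.54-fold in Postn, a larger gap than in 95.2% of the tested genes. Against CF, the treated cells differed by 0.68 at 1 µA (95% interval -0.30 to 1.66) and by 0.65 at 2 µA (95% interval -0.33 to 1.63), and neither was called by edgeR. Without CF replicate 2 these became 1.5 and 1.48 and were called (adjusted p = 0.0186 and 0.0217, against at most 0.732 and 0.762 over the alternatives), and without CF replicate 1 they were 0.17 and 0.15.

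**Figure D2:**
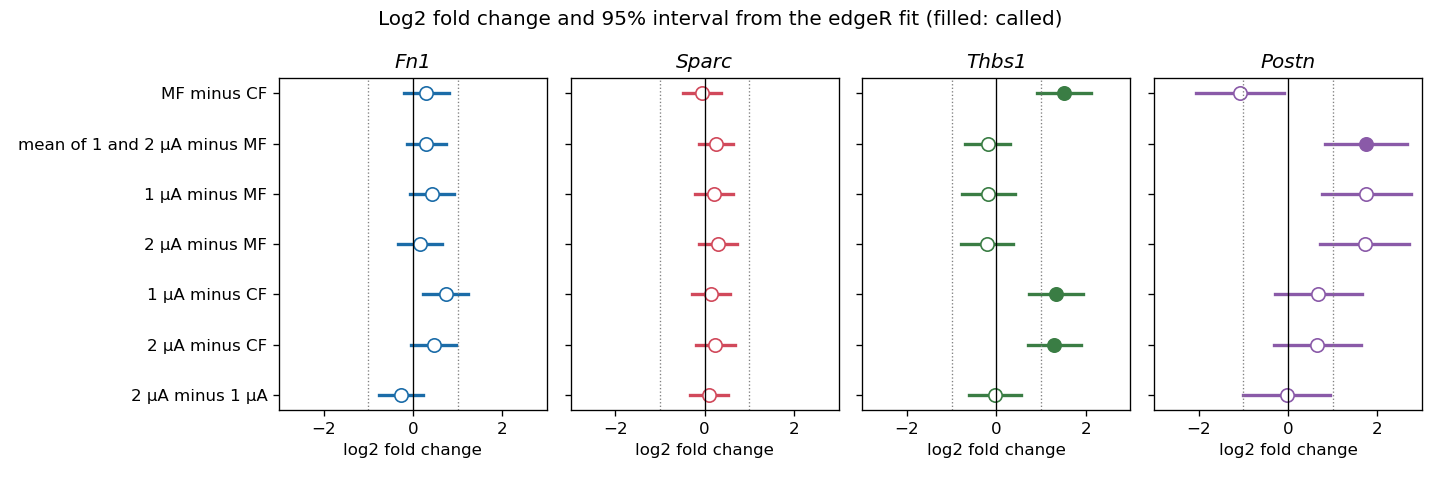
Log2 fold change (x axis, points) with 95% intervals (bars) of each member in the 7 comparisons (y axis) from the edgeR fit, with filled points for calls and dotted lines at -1 and 1. Thbs1 was called in the 3 comparisons with CF (1.51, 1.34 and 1.30) and Postn in the mean of both current densities against MF (1.74), while no interval of Sparc left 0.

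Fn1 had its highest values at 1 µA and its lowest in CF. Fn1 stood at 7600 and 8585 CPM in CF replicates 1 and 2, 11670 and 8308 CPM in MF, 14326 and 12556 CPM at 1 µA, and 10219 and 12129 CPM at 2 µA. Both 1 µA libraries lay above the other 6, and MF overlapped with both CF and 2 µA. For how many of all tested genes the 1 µA libraries stand apart was not computed. Means were 8093 ± 696 CPM in CF, 9989 ± 2377 CPM in MF, 13441 ± 1252 CPM at 1 µA and 11174 ± 1351 CPM at 2 µA (SD, n = 2 each). The replicates of MF differed 1.4-fold, more than in 90.4% of tested genes for that group.

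No comparison of Fn1 was called. The log2 difference was 0.30 between MF and CF (95% interval -0.20 to 0.80, adjusted p = 0.344, edgeR) and 0.30 between the mean of both densities and MF (95% interval -0.14 to 0.73, adjusted p = 0.312, edgeR). Its largest difference was 0.73 ± 0.212 between 1 µA and CF (SE, unadjusted p = 0.0107, adjusted p = 0.0793, edgeR), which is below the fold threshold. Over the alternatives its adjusted p ran from 0.00447 with DESeq2 to 0.315 without 1 µA replicate 1 (edgeR), and the difference from 0.64 to 0.83, below a log2 fold change of 1 in each. Without MF replicate 2 the difference between 2 µA and MF turned from 0.16 to -0.06, and without MF replicate 1 or 2 the mean of both densities differed from MF by 0.56 or 0.07. In the paper, immunofluorescence for the ED-A isoform of fibronectin was slightly reduced after microcurrent. That is protein of an isoform, whereas the values here are RNA of the whole gene, so the measures are unlike.

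Sparc varied least. Its level was 6300 and 8538 CPM in CF replicates 1 and 2, 7044 and 7141 CPM in MF, 7738 and 8641 CPM at 1 µA, and 8722 and 8819 CPM at 2 µA. The CF libraries took in the whole range of MF and 1 µA replicate 1, and the treated libraries all lay above MF. Means were 7419 ± 1582 CPM in CF, 7092 ± 68.0 CPM in MF, 8190 ± 639 CPM at 1 µA and 8771 ± 69.2 CPM at 2 µA (SD, n = 2 each).

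The treated cells differed from MF in Sparc by 0.26 on the log2 scale (95% interval -0.12 to 0.63, adjusted p = 0.306, edgeR), which was not called. This fold change was larger in size than that of 48.6% of the tested genes. How many of all tested genes likewise separate the treated libraries from MF was not computed. Between MF and CF the difference was -0.06 (95% interval -0.49 to 0.36, unadjusted p = 0.731, edgeR), was not called, and turned to 0.17 without CF replicate 2. A 2-fold difference, 1 log2 unit, lay outside the interval of every Sparc comparison.

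Between the 2 current densities none of the 4 members was called by edgeR or by DESeq2, and none had an unadjusted p below 0.05. In this comparison 0.00722% of the tested genes were called, a single gene. The 2 µA minus 1 µA differences were -0.27 for Fn1 (95% interval -0.77 to 0.23), 0.10 for Sparc (-0.33 to 0.53), -0.03 for Thbs1 (-0.62 to 0.56) and -0.03 for Postn (-1 to 0.94), all on the log2 scale. The interval of Postn still holds differences of nearly 2-fold either way. The replicates of CF differed 2.54-fold in Postn and those of 1 µA 1.5-fold, and the spread of every group enters this interval.

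By group mean, the order of levels was 1 µA, 2 µA, MF and CF for Fn1, from highest to lowest, and 2 µA, 1 µA, CF and MF for Sparc. For Thbs1 it was MF, 1 µA, 2 µA and CF, and for Postn 1 µA, 2 µA, CF and MF. Of the neighbours in these orders, only 2 µA and CF in Thbs1 were told apart by the test, and no neighbours were in Fn1, Sparc or Postn. The median log2 difference over the 4 members was 0.12 between MF and CF and 0.28 between the treated cells and MF, beside -0.03 and 0.00 over all tested genes, and these medians mix 1 called member with 3 uncalled ones.

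Together the 4 genes took 1.66% and 2.17% of all estimated counts in the CF libraries and 2.60% and 2.22% in MF. At 1 µA their share was 3.11% and 3.05%, and at 2 µA it came to 2.75% and 2.96%. The 4 treated libraries lay above the other 4 in this sum, which Fn1 and Sparc make up for the most part, and the sum was not tested.

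**Figure D3:**
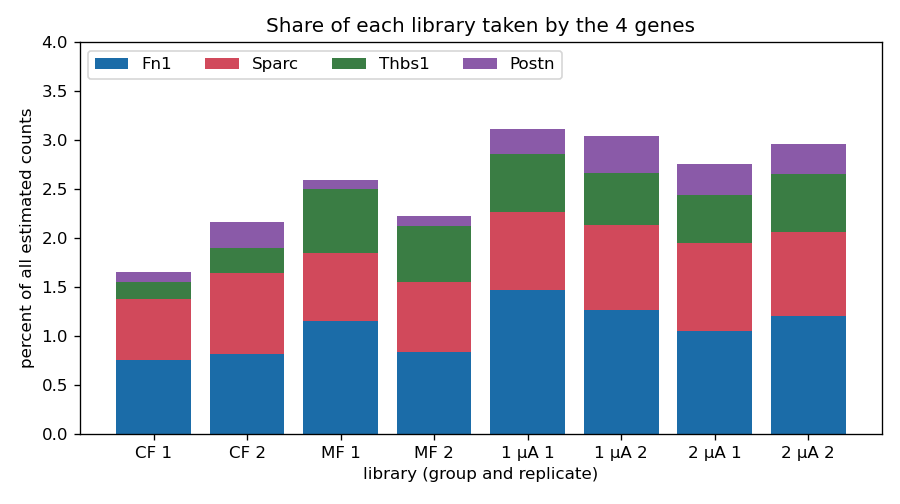
Share of all estimated counts (percent, y axis) taken by Fn1, Sparc, Thbs1 and Postn (stacked bars) in each of the 8 libraries (x axis). The sum ran from 1.66% in CF replicate 1 to 3.11% in 1 µA replicate 1, with a narrow Postn band in both MF libraries and in CF replicate 1.

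The members did not share one pattern. Over the 8 libraries of the authors' variance stabilised values, Pearson's r was 0.886 between Sparc and Postn and 0.743 between Fn1 and Thbs1. It was 0.469 for Fn1 with Sparc and with Postn, 0.404 for Sparc with Thbs1 and 0.119 for Thbs1 with Postn. These values describe 8 points that share their groups and libraries. Thbs1 had 100 tested genes with r above 0.95, Postn 20, and Fn1 and Sparc 5 each. The gene most like Thbs1 was ENSRNOG00000008346 (r = 0.993), with log2 differences of 1.02 between MF and CF and -0.05 between the treated cells and MF. The gene most like Postn was ENSRNOG00000005108 (r = 0.987), with -0.33 and 0.55 in the same comparisons. Each was picked as the highest r over all tested genes, so a high value comes with the choice. The tables give no symbols for these genes.

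The authors' second table of whole-number counts was compared with the first library by library. For every 100 estimated counts it held 79.4 to 81.6 counts of Fn1, 60.9 to 64.5 of Sparc, 41.1 to 44.6 of Thbs1 and 68.2 to 71.4 of Postn, where the totals of the libraries stood at 70.4 to 73.7. This ratio between the tables differed from gene to gene, and within a gene its highest and lowest values lay close together. In that table the log2 difference of Thbs1 between MF and CF was 1.45 (adjusted p = 0.0116, edgeR) and that of Postn between the treated cells and MF was 1.73 (adjusted p = 0.0288, edgeR), and both were called, within the ranges over the alternatives given above.

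**Figure D4:**
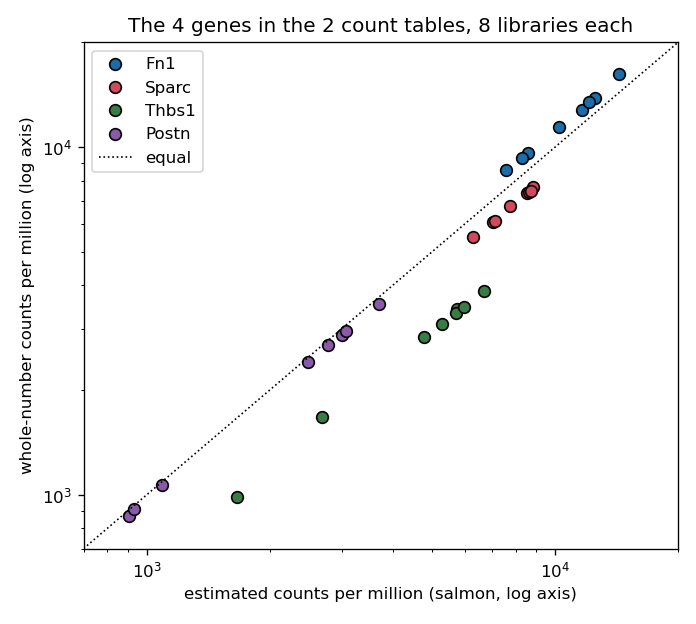
CPM in the table of whole-number counts (y axis, log scale) against those in the table of estimated counts (x axis, log scale) for each member in the 8 libraries, with a dotted line where both are equal. Each gene's points run parallel to the line, with Fn1 above it and Thbs1 farthest below it, at 984 CPM against 1661 CPM in CF replicate 1.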

How the data were processed

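RNA was sequenced as paired reads from 8 libraries. The deposited estimated counts come from salmon, run by the authors against rat rn6 transcripts, with tximeta for sums over genes. From these the authors made normalized values (a signal, each estimated count over a DESeq2 factor specific to gene and library) and vst values on a log2 scale. The deposited whole-number counts have no stated pipeline, list genes with a sum of at least 80, and stand beside labels that name STAR and DESeq2 1.28.1.

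Estimated counts were rounded, filtered with filterByExpr, scaled by TMM and tested in edgeR 4.0.16 (limma 3.58.1, R 4.3.3), with 1 coefficient per group and robust dispersions. The standard error is the log2 fold change over the root of F, and intervals (95%) use the fit's total degrees of freedom (6.78 to 6.97 for the members). Log CPM for replicate gaps used a prior count of 2. The code was tested on simulated data. Figures used matplotlib 3.10.9 in Python 3.11.15.

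The members, lists and tests were chosen with earlier results of these data known. Named genes were the members and, by ID, the likest gene of the 2 members with the highest r. Lists of other matrix, receptor and marker genes were planned and not run, since no table used here pairs symbols with Ensembl IDs. Promoters are from RefSeq (GRCr8) and matched 3 of 4 symbols. Alternatives were DESeq2 1.42.0, RLE or upper quartile scaling, transcript length offsets, no filter, the whole-number counts, only the groups compared, a replicate block, no fold threshold, and leaving out each library.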

Additional observations from a re-analysis of the deposited data

Results flagged for a closer look

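Among the 4 treated libraries, Sparc in 1 µA replicate 1 stood apart from the other 3, with a vst value of 17.83 on the log2 scale. Its gap to the nearest library was 0.856 of the range, above Dixon's 95% critical value for 4 samples. The other members did not pass that limit, with ratios of 0.539 for Fn1, 0.461 for Thbs1 and 0.481 for Postn. Chance marks about 1 in 20 such groups, and these 4 libraries come from 2 current densities. With that library left out, Sparc differed from MF by 0.30 in the mean of both densities, against 0.26 with it.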

How the results depend on the processing

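Each of 35 results was computed under 17 alternatives. Of 476 values of the members' log2 differences, 432 kept their direction and their side of the threshold, and 7 turned direction, all of them differences that were not called. Some alternatives could hardly move a log2 difference, so this count overstates how well the values hold. Dropping the fold threshold uses the same fit, and leaving out a library of a group outside the comparison hardly moved the difference. Without 1 library in turn, Sparc ran from -0.253 to 0.17 for MF against CF (turned without CF replicate 2) and from -0.0455 to 0.377 for 1 µA against CF (turned without CF replicate 1). Fn1 ran from -0.0625 to 0.427 for 2 µA against MF (turned without MF replicate 2). For 2 µA against 1 µA, Thbs1 ran from -0.201 to 0.12 (0.0253 without 1 µA replicate 1 and 0.12 without 2 µA replicate 1), and Postn from -0.291 to 0.3 (turned without 1 µA replicate 2), with 0.0175 under the replicate block. The causes of these changes were not tested.

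For MF against CF, 1 member was called, and DESeq2 called 2, with Postn at -1.06 (9.99% of all genes called, against 10.4%). For 1 µA against MF, 0 were called, and 1 (Postn) with upper quartile scaling, no filter, only the groups compared or DESeq2 (4.25%, 3.7%, 8.64% and 5.47% of all genes, against 3.92%). For 2 µA against MF, 0 were called, and 1 (Postn) under the same settings (4.98%, 4.24%, 6.24% and 6.03%, against 4.62%) and with the replicate block (3.5%). For 1 µA and for 2 µA against CF, the 1 call of Thbs1 became 0 with only the groups compared, where 3.58% and 0.0148% of all genes were called, against 6.51% and 5.02%. Leaving out 1 library gave 0 to 2 calls for MF, 1 µA or 2 µA against CF, 0 to 1 for 1 µA, 2 µA or their mean against MF, and 0 between the densities. The share of all genes called moved as well, from 2.38% to 14.2% for MF against CF, 0.976% to 8.46% for 1 µA and 2.07% to 7.24% for 2 µA against CF, and, against MF, 0.0283% to 6.28% for 1 µA, 0.0637% to 6.99% for 2 µA and 0.12% to 7.81% for their mean. Over these fits the difference between MF and CF was 1.22 to 1.90 for Thbs1, -1.58 to -0.25 for Postn and 0.04 to 0.53 for Fn1. The mean of both densities differed from MF by 1.58 to 1.87 for Postn, 0.07 to 0.56 for Fn1, 0.22 to 0.30 for Sparc and -0.30 to -0.08 for Thbs1. A group left with 1 library was assumed to vary like the others.

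The labels number the replicates but do not say that a number marks a shared culture or day. The correlation of same-numbered deviations over genes ran from -0.172 (CF and 1 µA) to 0.242 (1 µA and 2 µA) between groups. With 2 libraries per group these values cannot settle whether the numbers pair the samples. The main fit did not pair them. With the replicate block, Postn at 2 µA against MF was called (1.72, adjusted p = 0.0493 by edgeR, against 9.04e-05 to 0.289 over the alternatives), and the block changed no other call of a member. The SD between the 2 libraries of a group, as percent of the mean, exceeded the counting error in every member and group, for Postn in MF with 2.06% against 0.642%. With 2 libraries per group the spread itself is known only roughly.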

Other observations

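The ratio of each estimated count to the authors' normalized value, divided by the library's median ratio, gives the relative transcript length that the normalization used for a gene. Expressed as percent of the gene's mean over the 8 libraries, it ran from 98.64% (MF replicate 1) to 101.8% (CF replicate 1) for Fn1, from 99.28% to 100.8% for Thbs1, from 99.49% to 100.6% for Postn and from 99.83% to 100.2% for Sparc. The range of Fn1, 3.14 percentage points, was wider than that of 67.8% of the tested genes with a value in all libraries, and that of Sparc, 0.323 points, was wider than that of 6.95%. The median range was 1.99 points. In Fn1 the CF libraries (101.8% and 100.2%) overlapped with the 1 µA libraries (100.9% and 99.17%). They lay above the MF libraries (98.64% and 100%) and the 2 µA libraries (99.58% and 99.7%). With transcript length offsets the log2 difference of Fn1 between MF and CF was 0.352, against 0.304 in the main fit, and was not called in either. Which transcripts of Fn1 were present was not analysed here.

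The gap between the 2 CF replicates, as log2 CPM, was 1.34 for Postn, 0.70 for Thbs1, 0.44 for Sparc and 0.18 for Fn1, all higher in replicate 2, beside a median absolute gap of 0.26 over all tested genes. In MF that median was 0.12, and the gaps were 0.04 for Postn, -0.21 for Thbs1, 0.02 for Sparc and -0.49 for Fn1.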
